A study of Homo sapiens with 4 samples.

Results

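The genes described here are 8 members of the EGF receptor system among the 63677 genes of the count files, namely the ligands AREG (amphiregulin), EREG (epiregulin), HBEGF (heparin-binding EGF-like growth factor), TGFA (transforming growth factor alpha) and NRG1 (neuregulin 1), the receptors EGFR and ERBB2, and the protease ADAM17. They were listed by symbol and matched to gene identifiers on the primary chromosomes, after earlier results of the same knockdown comparison were known. Their differences between control and knockdown libraries are therefore given as values without a test. The RNA came from IMR90, human fetal lung fibroblasts, in which HMGB1, a nuclear protein that bends DNA and can also be secreted, was knocked down with siRNAs delivered by RNAiMAX for 72 h. There were 2 control libraries, which received a non-targeting siRNA (NTC) and the same reagent, and 2 HMGB1 knockdown libraries. Isolate I90-10 gave replicate 1 of each group and isolate I90-79 gave replicate 2, both at passage 5, so that each group held 1 library of each isolate. No other allele or agent is given for either group, and the depth ranged from 29861687 to 35317010 counted reads in each library.

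The EGF family ligands are made as membrane proteins with an EGF-like fold outside the cell, and proteases such as ADAM17 cut them free. The freed ligand pairs EGF receptors, which phosphorylate each other and switch on RAS, RAF, MEK and ERK as well as PI3 kinase. AREG, EREG, HBEGF and TGFA bind EGFR, HBEGF and EREG also bind ERBB4, and NRG1 binds ERBB3 and ERBB4. ERBB2 binds none of these ligands by itself and acts as the partner of the other receptors. Fibroblasts release several of these ligands in wounds and in senescence.

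HMGB1 itself was measured at 181 and 237 CPM (read counts scaled to 1000000 in a library with the TMM factors of edgeR) in the control libraries of I90-10 and I90-79, and at 16.0 and 18.9 CPM in the knockdown libraries. The transcript was 11.4-fold lower in I90-10 and 12.6-fold lower in I90-79, so that each library matched its label. Across all genes, edgeR's quasi-likelihood test on the 4 libraries called 31 of 15398 genes (0.201%; 0.0649% up- and 0.136% downregulated). A call needed an adjusted p under 0.01 and a log2-fold change of more than 0.6 in either direction. With the isolate as a term (the replicate block), it called 2235 genes, or 14.5% (6.68% up- and 7.84% downregulated).

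The fibroblast identity of the RNA was checked on markers. Collagen genes led the fibroblast markers in all 4 libraries. COL1A1, a chain of type I collagen, was measured at 12559 and 5665 CPM in the controls of I90-10 and I90-79 and at 10573 and 5823 CPM after knockdown. COL1A2, COL3A1, VIM and DCN were the other leading markers, and COL3A1 was above COL1A1 in the knockdown library of I90-79, at 7412 CPM. With the block, LUM was called upregulated (log2-fold change 0.83, edgeR adjusted p 0.00294) and THY1 (-0.99, edgeR adjusted p 3.11e-04) and PDGFRB (-0.68, edgeR adjusted p 0.00265) downregulated, named here after their values were seen, and without it none of the 9 was called. The 9 fibroblast markers summed to 34226 and 18044 CPM in the controls and to 32669 and 20589 CPM after knockdown, which was lower in I90-79 than in I90-10 in both groups. Of 7 epithelial markers, 5 had at most 3 counts in every library, and the sum of the 7 lay between 0.864 and 1.57 CPM, with CLDN4 the most abundant in the controls and EPCAM after knockdown. Of 6 leukocyte markers, 5 had at most 3 counts in every library, CD14 was the most abundant, and the sum lay between 0.0814 and 0.208 CPM. Of 5 endothelial markers 4 were matched on the primary chromosomes. CDH5, which defines endothelial cells, was at 0 in every library, while TEK made up nearly all of the endothelial sum at 131 to 149 CPM. VWF, which endothelial cells also make, was at 1.36 and 0.923 CPM in the controls and 4.16 and 2.59 CPM after knockdown, and was called upregulated with the block (log2-fold change 1.55, edgeR adjusted p 0.00357) and not without it (adjusted p 0.0681). Its part in the other results was not tested. In RNA from whole cultures, fewer cells of a type cannot be told apart from less RNA in each cell.

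The amphiregulin locus exists in a second copy in the genome build used by the authors, and this copy bears on every AREG value. In hg19, AREG (ENSG00000109321) lies at chr4:75310851-75320726 on the plus strand, and AREGB (ENSG00000205595) at chr4:75480629-75490486 on the same strand, with 169.8 kb between their starts. Both loci have 6 exons. Over 1646 exonic bases that could be set side by side, 1645 (99.9%) were identical. The only difference is G240A, the AREG base first and the AREGB base second, counted from the first compared base of exon 1. It falls in the coding part of exon 1 of AREG, at chr4:75311092. The 29 bases around it are shown from hg19, plus strand, at chr4:75311078-75311106 for AREG and chr4:75480854-75480882 for AREGB, with the differing base in capitals, since an AREG read that stays within the compared exons differs from the copy only there.
AREG: ctaccgccggcgccGgtggtgctgtcgct
AREGB: ctaccgccggcgccAgtggtgctgtcgct

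Uniquely mapped reads alone were counted. In the spliced AREG transcript of 1240 bases, 1139 of 1191 windows of 50 bases (95.6%) were also present in AREGB, and of windows of 100 bases 1039 of 1141 (91.1%) were. AREG counts can therefore understate the transcript and rest on a small part of it. AREGB itself had 0, 0, 0 and 2 counts. RefSeq's gene table of GRCh38.p14 lists AREGB only as another name of AREG. The ratio between libraries compares the same part of the transcript in each, whereas the level of AREG per length may be too low by an amount that was not measured.

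AREG, a ligand of EGFR with lower affinity than EGF, was counted 1 and 51 times in the controls of I90-10 and I90-79, and 218 and 363 times after knockdown. As TMM-scaled CPM these were 0.0340 and 1.38 in the controls and 7.55 and 11.6 after knockdown, with means of 0.709 ± 0.955 and 9.59 ± 2.88 CPM (SD, n = 2 each). Both knockdown libraries stood above both controls, and the control of I90-10 was the lowest of all 4. In I90-10 the knockdown library was 222-fold higher, with an exact 95% interval from counting error of 39.4 to 8797. In I90-79 it was 8.399-fold higher (6.25 to 11.5). These intervals cover counting error only and do not include the variation between cultures. The fitted log2-fold change over all 4 libraries was 3.69, and adding the reads of AREGB left it at 3.69. It was 7.97 without the control of I90-79, when a library with 1 AREG count was the only control, and 2.79 without the control of I90-10.

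EREG, the neighbour of AREG on chromosome 4 (ENSG00000124882, chr4:75230860-75254468, plus strand) and a ligand of EGFR and ERBB4, was measured at 1.396 and 15.5 CPM in the controls and at 42.1 and 122 CPM after knockdown. Again both knockdown libraries lay above both controls, and within each group I90-79 was above I90-10. The means were 8.46 ± 9.99 and 82.0 ± 56.4 CPM. Knockdown was 30.2-fold above control in I90-10 (counting interval 22.1 to 42.3) and 7.86-fold above it in I90-79 (7.19 to 8.59). The fitted log2-fold change was 3.26. It was 5.87 without the control of I90-79, 2.40 without the control of I90-10 and 2.31 without the knockdown library of I90-79.

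NRG1 (ENSG00000157168, chr8:31496902-32622548, plus strand), the ligand of ERBB3 and ERBB4, was the most abundant of the ligands per length as counted. Its rank against AREG is not known, because the AREG level may be too low. It was measured at 36.9 and 166 CPM in the controls and at 206 and 302 CPM after knockdown, with means of 101.5 ± 91.4 and 254 ± 68.1 CPM. The groups did not overlap, although the knockdown library of I90-10 was closer to the control of I90-79 than to the control of its own isolate. Knockdown was 5.58-fold above control in I90-10 (5.23 to 5.96) and 1.82-fold above it in I90-79 (1.76 to 1.88). The fitted log2-fold change was 1.32, and it was 2.78 without the control of I90-79 and 0.61 without the control of I90-10. With RUVs, the method of the authors for removing unwanted variation, and DESeq2, it was 0.93.

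HBEGF (ENSG00000113070, chr5:139712428-139726216, minus strand), a ligand of EGFR and ERBB4 that binds heparan sulfate, stood on the other side. It was measured at 10.3 and 20.7 CPM in the controls and at 5.99 and 4.55 CPM after knockdown, with means of 15.5 ± 7.31 and 5.27 ± 1.02 CPM. Both knockdown libraries lay below both controls. Knockdown was 1.72-fold below control in I90-10 (1.42 to 2.09) and 4.54-fold below it in I90-79 (3.79 to 5.47), and the control of I90-79 was the highest library. The fitted log2-fold change was -1.56. It was -0.97 without the control of I90-79 and -1.97 without the control of I90-10.

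TGFA (ENSG00000163235, chr2:70674412-70781325, minus strand), a ligand of EGFR, had 0 counts in all 4 libraries. A count of 0 allows up to 3 counts, which correspond to 0.0814 to 0.104 CPM in these libraries. It was the 1 member of the 8 that did not pass the filter on low counts.

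**Figure D1:**
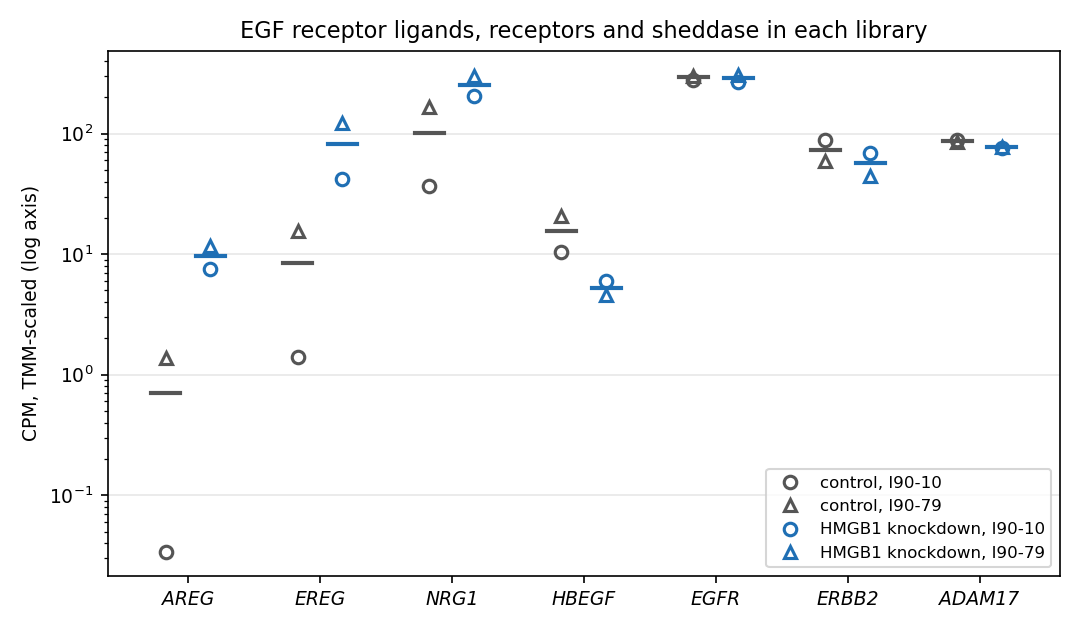
TMM-scaled CPM (log axis) of the members in each library; circles are the isolate I90-10, triangles I90-79, grey control, blue HMGB1 knockdown, and bars the group means (n = 2). AREG, EREG and NRG1 are higher and HBEGF lower in both knockdown libraries than in both controls; TGFA, at 0 counts in every library, cannot be drawn on a log axis.

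EGFR (ENSG00000146648, chr7:55086714-55324313, plus strand), the receptor of AREG, EREG, HBEGF and TGFA, had closely spaced values. It was measured at 280 and 302 CPM in the controls and at 268 and 308 CPM after knockdown, with means of 291 ± 15.6 and 288 ± 28.1 CPM. The groups overlapped, and the fitted log2-fold change was -0.02. It ranged from -0.12 to 0.08 when 1 library was left out. Knockdown over control was 0.956 in I90-10 and 1.02 in I90-79.

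ERBB2 (ENSG00000141736, chr17:37844167-37886679, plus strand) was measured at 87.7 and 59.7 CPM in the controls and at 68.7 and 44.7 CPM after knockdown, with means of 73.7 ± 19.8 and 56.7 ± 16.97 CPM. The groups overlapped, because I90-79 was below I90-10 in each of them. Within an isolate, knockdown was 1.28-fold below control in I90-10 and 1.34-fold below it in I90-79. The fitted log2-fold change was -0.38, and -0.07 with RUVs and DESeq2. It was -0.08 without the control of I90-10, -0.10 without the knockdown library of I90-79, -0.63 without the control of I90-79 and -0.72 without the knockdown library of I90-10.

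ADAM17 (ENSG00000151694, chr2:9628615-9695921, minus strand), the protease that releases AREG, EREG, HBEGF and TGFA from the membrane, was measured at 88.1 and 84.3 CPM in the controls and at 76.0 and 77.6 CPM after knockdown, with means of 86.2 ± 2.66 and 76.8 ± 1.14 CPM. The groups did not overlap, but the distance was small, with a fitted log2-fold change of -0.17. Knockdown was 1.16-fold below control in I90-10 and 1.09-fold below it in I90-79. Of the exonic bases of ADAM17, 24.1% overlap other genes, against 7.41% for ERBB2 and 1.44% for EGFR, and the strand setting of the counting is not given in the sources used here.

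Thus 5 of the 7 members that passed the filter had groups that did not overlap, 3 with higher (AREG, EREG and NRG1) and 2 with lower values after knockdown (HBEGF and ADAM17). Of all 15398 genes tested, 59.9% had groups that did not overlap (29.8% with higher and 30.2% with lower values after knockdown), so that this count by itself is close to the background, and the members were chosen on the same values. In absolute value, the fitted log2-fold changes of the 4 detected ligands were between 1.32 and 3.69, and those of EGFR, ERBB2 and ADAM17 between 0.02 and 0.38. This split also rests on values known when the members were chosen, so it describes these libraries and is not a result about ligands in general. The ligands EGF and NRG4, which are not members, had fitted log2-fold changes of -1.04 and 0.68.

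**Figure D2:**
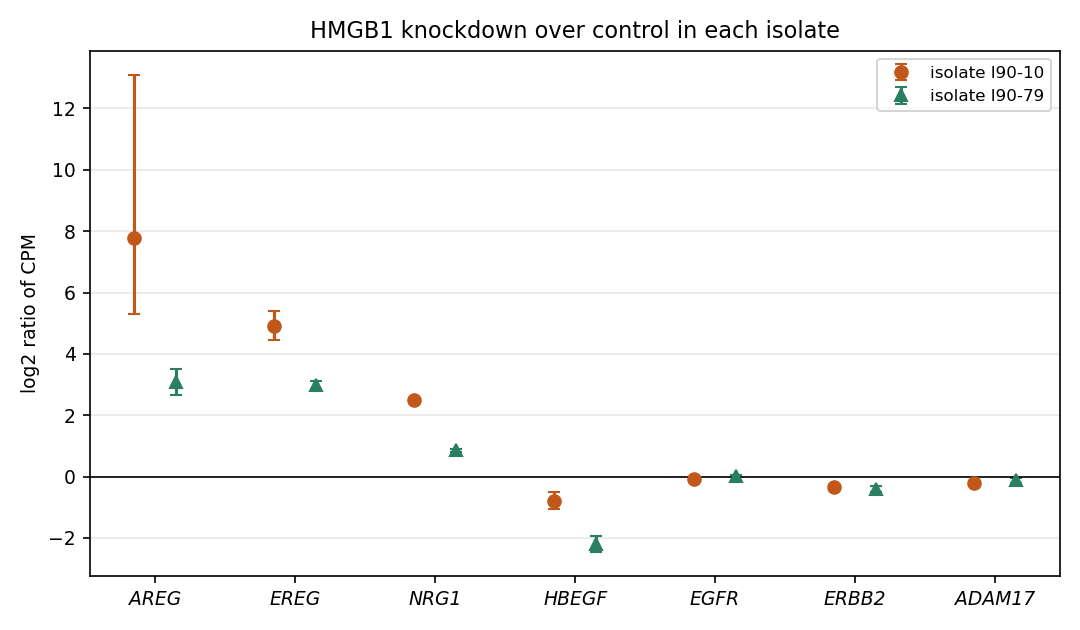
log2 ratio of CPM, HMGB1 knockdown over control, within isolate I90-10 (circles) and I90-79 (triangles); error bars are exact 95% intervals from counting error. The ratios of AREG, EREG and NRG1 are larger in I90-10, that of HBEGF is further below 0 in I90-79, and those of EGFR, ERBB2 and ADAM17 are near 0 in both.

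Levels of different genes were set side by side as CPM per kb of exon. In the controls the order was EGFR (22.5 ± 1.20), ADAM17 (15.7 ± 0.485), NRG1 (13.3 ± 11.9), ERBB2 (7.14 ± 1.92), HBEGF (5.13 ± 2.42), EREG (1.48 ± 1.75) and AREG (0.430 ± 0.579), with TGFA at 0. NRG1 spread so widely between the isolates that its range overlapped those of EGFR, ADAM17, ERBB2 and HBEGF, although within each control library it was above HBEGF and below EGFR. The ranges of the neighbours ERBB2 and HBEGF overlapped, with their order reversed between the control libraries, and those of EREG and AREG overlapped with EREG above AREG in each library. After knockdown the order was NRG1 (33.2 ± 8.89), EGFR (22.2 ± 2.17), EREG (14.3 ± 9.87), ADAM17 (14.01 ± 0.209), AREG (5.82 ± 1.75), ERBB2 (5.49 ± 1.64) and HBEGF (1.75 ± 0.338). The range of EREG overlapped that of EGFR, with EREG below EGFR in each library. The order of EREG and ADAM17, and that of AREG and ERBB2, differed between the knockdown libraries, and the AREG levels may be too low for the reason given above.

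The make-up of the ligand transcripts, as shares of the summed CPM per kb of the 5 ligands, also differed between the libraries. The sum was 8.50 and 32.1 CPM per kb in the controls of I90-10 and I90-79, and 40.8 and 69.3 after knockdown. HBEGF made up 40.2% and 21.3% of it in the controls, and 4.86% and 2.17% after knockdown. EREG made up 2.87% and 8.46% in the controls, and 18.0% and 30.8% after knockdown. The share of AREG was 0.244% and 2.62% in the controls and 11.2% and 10.2% after knockdown. As counted, NRG1 was the largest part in every library, at 56.7% and 67.6% in the controls and 65.9% and 56.9% after knockdown, and its groups overlapped. These shares take AREG as counted, and its level may be too low by an amount that was not measured. The true share of AREG, its rank against NRG1 and the shares of the other ligands are therefore not known.

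The isolates were compared next, because the choice of the members did not use this contrast. I90-79 was set against I90-10 in an edgeR fit with the group as a second term, over all 15398 genes. No member met the call rule, which 1.67% of all genes did (0.442% higher and 1.23% lower in I90-79), and 4 of the 7 members tested had an unadjusted p below 0.05, against 22.2% of all genes. At an adjusted p below 0.05 without a threshold on the fold there were 3 of the 7 (EREG, ERBB2 and NRG1), against 6.79% of all genes. DESeq2 gave an adjusted p below 0.01 for ERBB2 alone (0.00270), at a log2-fold change of -0.59 that did not reach the threshold on the fold.

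EREG had a log2-fold change of I90-79 over I90-10 of 2.15 (SE 0.332), and its edgeR adjusted p of 0.0111 lay just outside the threshold. I90-79 was above I90-10 in both groups, by 11.1-fold in the controls (8.10 to 15.7) and by 2.90-fold after knockdown (2.71 to 3.09). Its adjusted p was 0.00867 with the size factors of DESeq2 in edgeR and 0.0646 with DESeq2. NRG1 had a log2-fold change of 1.34 (SE 0.314, edgeR adjusted p = 0.0444), with I90-79 above I90-10 by 4.51-fold in the controls and by 1.47-fold after knockdown. With DESeq2 its adjusted p was 0.404. AREG had a log2-fold change of 1.21 (SE 0.498), and its edgeR adjusted p of 0.202 missed the threshold. With DESeq2 these were 1.90 and 0.0197. Its ratio was 40.7 in the controls, where the interval ran from 6.98 to 1637 because I90-10 had 1 count, and 1.54 after knockdown (1.30 to 1.83).

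ERBB2 had a log2-fold change of -0.59 (SE 0.0968, edgeR adjusted p = 0.0140), with I90-79 below I90-10 by 1.47-fold in the controls and by 1.54-fold after knockdown. HBEGF had opposite ratios in the groups, 2.002 in the controls and 0.759 after knockdown, and an edgeR adjusted p of 0.494. EGFR (adjusted p = 0.385) and ADAM17 (adjusted p = 0.946) did not pass either. The fibroblast markers moved with the isolate too, since their sum was lower in I90-79 in both groups, and the part of this in the isolate differences was not tested. For AREG, EREG and NRG1 the knockdown ratio was larger in I90-10, the isolate with the lower control value. IMR90 were transfected with more than 1 siRNA, and which library received which is not given in the sources used here, so that a difference between the isolates in these ratios cannot be told apart from one between siRNAs. With 1 library for each isolate and group no residual degrees of freedom are left for a test of whether the isolates differ in their knockdown ratio.

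**Figure D3:**
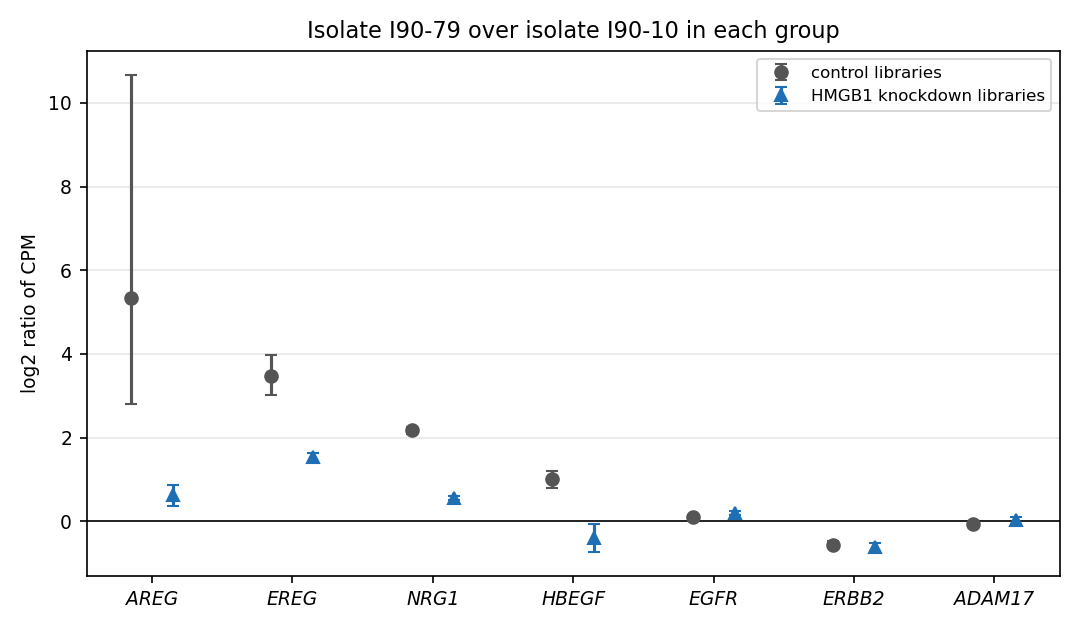
log2 ratio of CPM, isolate I90-79 over I90-10, within the control libraries (grey circles) and within the HMGB1 knockdown libraries (blue triangles); error bars are exact 95% intervals from counting error. For AREG, EREG and NRG1 the ratio is above 0 in both groups and larger in the controls, ERBB2 is below 0 in both, and HBEGF changes side.

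The other EGF family members were then examined from a list of 8 genes, the 6 ligands EGF, BTC, EPGN, NRG2, NRG3 and NRG4 and the receptors ERBB3 and ERBB4, named here after their values were seen. Most were close to undetected. BTC and NRG3 had 0 counts in all libraries, and EPGN had 3 counts in 1 control library and 0 elsewhere. ERBB3 had 5 and 3 counts in the controls and 7 and 12 after knockdown, and ERBB4 had 1, 2, 3 and 4 counts in the same order. So the receptors that bind NRG1 were at or below 0.384 CPM in every library, whereas NRG1 was at 36.9 CPM or more. EGF and NRG4 passed the filter on low counts, and neither was called with or without the replicate block. EGF was at 1.57 and 1.38 CPM in the controls and 0.658 and 0.768 CPM after knockdown.

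The rest of the pathway was read from 5 further lists, so that 90 genes in 6 lists were examined and 82 of them tested. edgeR called 0 of the 82 without the block. There, 22 had an unadjusted p below 0.05 and a positive and 19 a negative log2-fold change. Of all genes tested, 28.3% had such a p, 13.6% with a positive and 14.7% with a negative value. DESeq2 called 9 up- and 10 downregulated of the 88 it fitted, against 702 and 788 of all 27391 genes it fitted. Those 27391 are all genes with a read, many of them too low to pass the edgeR filter, which kept 15398. The DESeq2 share over all genes is therefore not a like background for the pathway genes. With the replicate block edgeR called 14 up- and 14 downregulated of the 82, or 34.1%, against 14.5% of all genes. The median log2-fold change over the 82 genes was 0.03 and over all genes tested -0.01. For the genes called with the block and named below from the 5 further lists, the adjusted p without the block lay between 0.0104 and 0.453. "Rose" and "fell" are used of these genes for calls with the block.

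Of the shedding machinery, which matures, steers or inhibits the proteases that release the ligands, 14 genes were tested, 1 rose and 4 fell (35.7%, against 14.5% of all genes), with a list median of -0.02. ADAM15, a membrane protease of the ADAM family, was at 53.2 and 53.5 CPM in the controls and 97.0 and 87.2 CPM after knockdown and rose (log2-fold change 0.79, SE 0.0998, edgeR adjusted p with the block 8.53e-04). ADAM9, a related protease, fell by 0.74 on the log2 scale. TIMP3, a secreted inhibitor of ADAM17, fell by 0.73, and TSPAN5, a tetraspanin that escorts ADAM10, by 0.94. These 2 genes overlapped between the groups, since they were also lower in I90-79 (edgeR adjusted p 0.00168 and 0.00249), and they separated only within each isolate. BACE1, a membrane aspartyl protease that also cuts NRG1, fell by 0.92 and its groups did not overlap.

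Among 21 genes that carry the signal from the receptor to ERK and PI3 kinase, 1 rose and 3 fell (19.0%, near the 14.5% of all genes), and the list median was -0.11. NRAS, a small GTPase, was at 91.6 and 87.6 CPM in the controls and at 41.5 and 41.6 CPM after knockdown, and fell by 1.11 on the log2 scale (SE 0.0979, edgeR adjusted p with the block 1.73e-04). HRAS, a related GTPase, rose with a log2-fold change of 0.73. GAB1, an adaptor that links the receptor to PI3 kinase, was at 35.8 and 24.02 CPM in the controls and 14.1 and 12.1 CPM after knockdown and fell by 1.17.

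The attenuation list, made of genes that silence, sort or degrade the receptor, held 14 genes. With the block 3 rose and 4 fell (7 of 14, against 14.5% of all genes), and the list median was -0.39. ERRFI1 (MIG6), which binds the kinase domain of EGFR and inhibits it, was at 229 and 114 CPM in the controls and at 41.0 and 34.5 CPM after knockdown and fell by 2.11 on the log2 scale (SE 0.170, edgeR adjusted p with the block 1.22e-04). The groups were separate, and the control of I90-10 was the highest library. PTPN1, a phosphatase that acts on EGFR at the endoplasmic reticulum, was at 153 and 157 CPM in the controls and 75.8 and 77.2 CPM after knockdown and fell by 1.02. SOCS5, which promotes loss of EGFR, fell by 0.69, while its relative SOCS4 rose with a log2-fold change of 0.64. CBL, the ubiquitin ligase of activated EGFR, rose with a log2-fold change of 1.11, from 34.7 and 42.2 CPM to 79.6 and 85.5 CPM. In 13 of the 14 genes the groups did not overlap (92.9%, against 59.9% of all genes), 9 of them lower and 4 higher after knockdown. This was the highest share of the 6 lists. Over their 82 tested genes the share was 70.7%, and it was lowest in the shedding list, at 42.9%.

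Of 8 feedback inhibitors of the ERK pathway, 2 rose and 1 fell with the block (37.5%, against 14.5% of all genes), and the median was 0.07. SPRY2, a Sprouty protein, was at 20.02 and 49.6 CPM in the controls and 75.1 and 111 CPM after knockdown and rose with a log2-fold change of 1.53 (SE 0.167, edgeR adjusted p with the block 4.32e-04). SPRY4 was at 57.6 and 102 CPM in the controls and 142 and 210 CPM after knockdown and rose with a log2-fold change of 1.17. SPRY4 was also called higher in I90-79 (edgeR adjusted p = 0.00983), as the order of its libraries shows. SPRED1, a related inhibitor of RAS activation, fell by 1.15, from 61.9 and 56.1 CPM to 26.9 and 26.0 CPM.

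The list of immediate early and delayed targets, genes that growth factors switch on within minutes to hours, had the highest median of the 6 lists, 0.40, with 19 of 23 log2-fold changes above 0, against 7641 of 15398 over all genes tested. With the block 7 rose and 2 fell (39.1%, against 14.5% of all genes). EGR2, a zinc finger transcription factor, was at 3.27 and 3.37 CPM in the controls and 13.7 and 13.4 CPM after knockdown and rose with a log2-fold change of 2.03 (SE 0.165, edgeR adjusted p with the block 1.28e-04). JUNB, a subunit of AP-1, was at 72.8 and 82.7 CPM in the controls and 239 and 208 CPM after knockdown and rose with a log2-fold change of 1.52. IER2 rose with a log2-fold change of 0.64. CYR61, a matricellular protein, went the other way and fell by 2.17 on the log2 scale, from 376 and 267 CPM to 88.0 and 56.6 CPM. SRF, the transcription factor that binds the promoters of many immediate early genes, fell by 1.12.

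**Figure D4:**
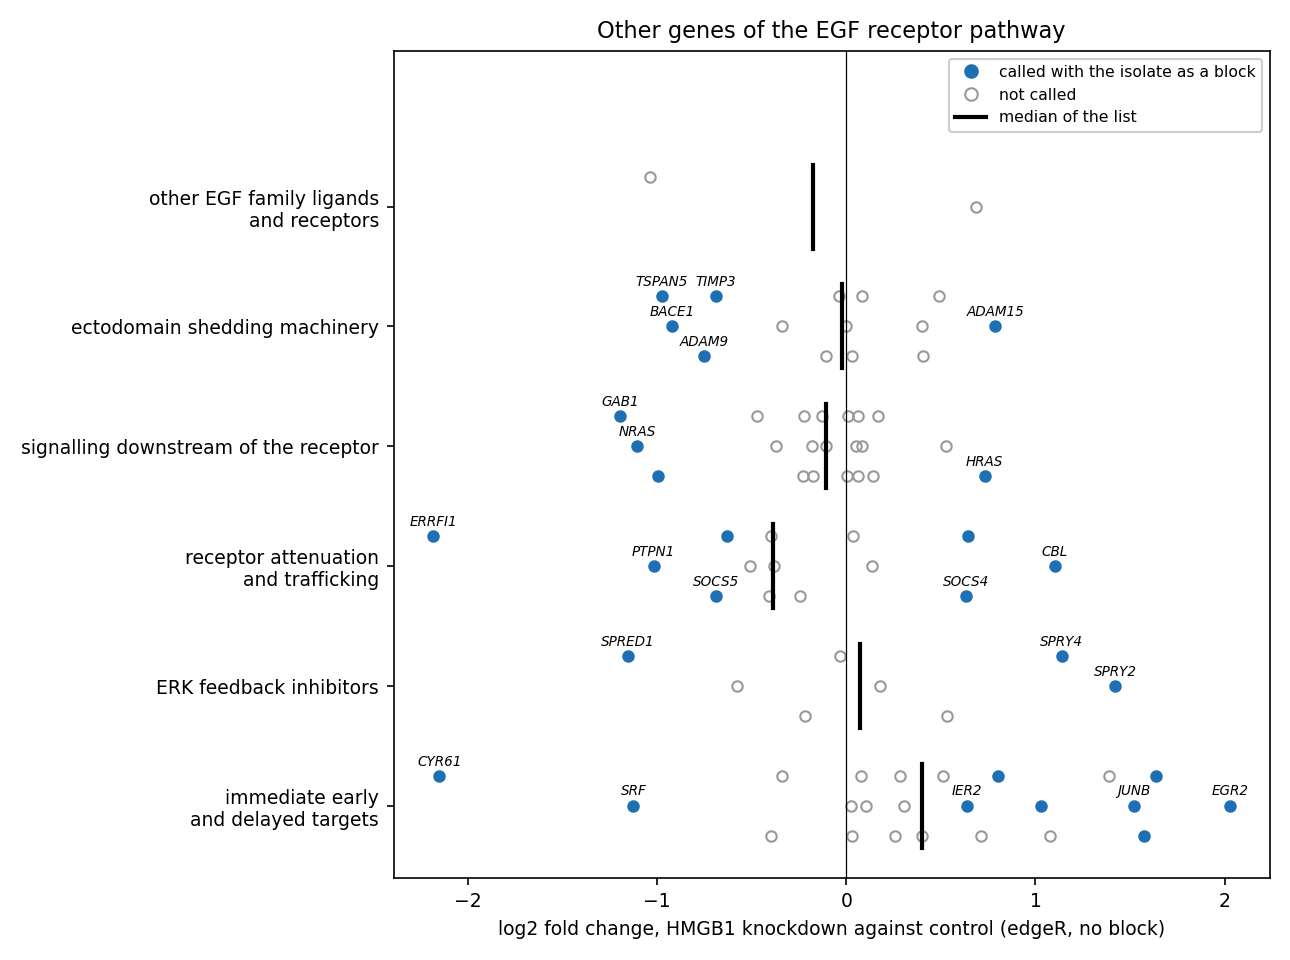
edgeR log2-fold change, HMGB1 knockdown against control, of the 82 tested genes of 6 lists (1 point a gene); filled points were called with the isolate as a block, open points were not, and the bar is the list's median. The medians lie between -0.39 (attenuation) and 0.40 (targets), and called genes stand on both sides of 0 in each list except the other EGF family genes, where none was called.

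AREG and EREG lie in a cluster of secreted factors on chromosome 4, and the other genes that start or end within 1000000 bases of AREG were examined. Of 42 such genes, 10 passed the filter, among them 7 chemokine genes. edgeR called 0 of the 10 without the block, where 2 had an unadjusted p below 0.05, against 28.3% of all genes. DESeq2 called 1 upregulated of the 18 it fitted, against 702 up- and 788 downregulated of all 27391 genes with a read, which it fitted without a filter on low counts. With the block edgeR called 7 of the 10 upregulated (70.0%, against 6.68% of all genes) and none downregulated. These were CXCL8, CXCL6, CXCL1, CXCL5, CXCL3, CXCL2 and MTHFD2L. The median log2-fold change of the 10 was 1.09. The non-chemokine gene MTHFD2L, a mitochondrial enzyme of folate metabolism, was at 2.66 and 4.80 CPM in the controls and at 7.31 and 9.35 CPM after knockdown.

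The neighbours shared the order of libraries seen in EREG only in part. CXCL5, a chemokine for neutrophils, was at 6.23 and 152 CPM in the controls and 106 and 441 CPM after knockdown, so that its groups overlapped, and its log2-fold change with the block was 2.65 (SE 0.488, edgeR adjusted p 0.00478). CXCL3 was at 9.60 and 66.5 CPM in the controls and 101 and 223 CPM after knockdown, with separate groups and a log2-fold change of 2.50. CXCL8, the most abundant of them, was at 173 and 1161 CPM in the controls and 921 and 2299 CPM after knockdown. Against the isolate, CXCL8 and CXCL2 were called higher in I90-79 (edgeR adjusted p 0.00830 and 0.00669). AFP and PF4V1 were below 2 CPM in every library, and PARM1, the tested gene on the far side of AREG, had a log2-fold change of -1.04 with the block (edgeR adjusted p = 0.0278). BTC and EPGN, EGF family ligands of the same region, had 0 and at most 3 counts. Within I90-10 and I90-79, AREG and EREG had larger knockdown ratios than any of the 10 tested neighbours. However, AREG and EREG were chosen with this comparison known and the neighbours by position, so this ranking is not a test. The AREG ratio in I90-10 also rests on 1 control count.

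**Figure D5:**
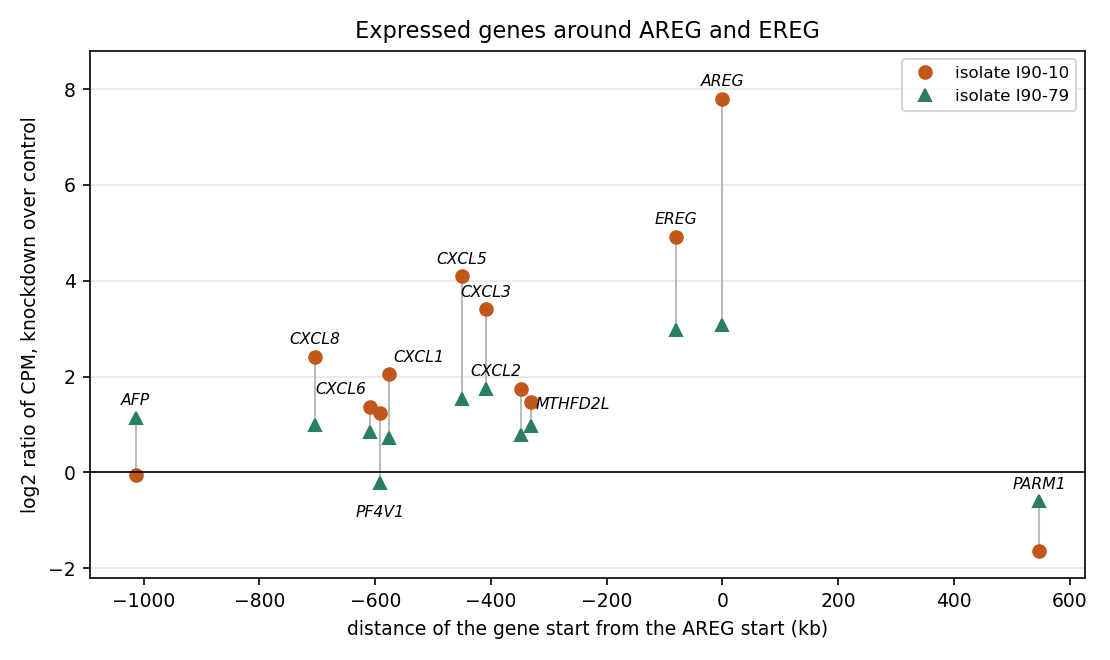
log2 ratio of CPM, HMGB1 knockdown over control, within I90-10 (circles) and I90-79 (triangles) for the tested genes around AREG, against the distance of each gene's start from the start of AREG in kb. AREG, at 0 kb, and EREG have the highest ratios in both isolates, and the CXCL genes lie upstream, from -704.6 to -348.1 kb.

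The genes most like AREG and EREG over the 4 libraries were found by the Euclidean distance between log2 CPM values. These were computed with a prior count of 2, added to avoid the log of 0, and centred on their mean. The values were not scaled, so this distance depends on the size of the differences between the 4 libraries as well as on their order, and describes little more. Nearest to AREG were SLC16A6 (0.71), EREG (1.04), IL1RL1 (1.08), IL33 (1.13) and NDNF (1.27), the distances being in log2 units. The sizes and order of these distances depend on the prior count, through the control of I90-10 with 1 AREG count. Nearest to EREG were IL33 (0.19), MMP3 (0.65), NDNF (0.85), AREG (1.04) and SLC16A6 (1.05). IL33, a nuclear cytokine released from damaged cells, was at 0.953 and 10.5 CPM in the controls and 26.9 and 71.5 CPM after knockdown. IL1RL1, the receptor of IL33, was at 0.238 and 1.55 CPM in the controls and 12.0 and 24.7 CPM after knockdown. MMP3 (stromelysin) was at 3.92 and 61.8 CPM in the controls and 123 and 579 CPM after knockdown. All had the control of I90-10 lowest and the knockdown library of I90-79 highest, as AREG and EREG had. Their choice by distance over the same libraries favours this order, so it is not a separate result.

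Promoter sequences were read for the members because AREG and EREG, on the same chromosome, had high knockdown ratios together. RefSeq promoters of GRCh38.p14, 250 bases before to 50 after the gene start, were found for 7 of the 8 members, with a pair of promoters each for TGFA and EGFR. None was found for NRG1, which was therefore not searched. Both strands were searched for the cAMP response element (CRE, TGACGTCA), the AP-1 element (TGANTCA) and a TATA element (TATAAA). None of these overlaps another by its letters, although a window can hold more than 1. AREG held a CRE 65 bases before its start, a sequence found in 2.25% of the 27305 genes with a promoter, and a TATA element 29 bases before its start. EREG held a TATA element 32 bases before its start and neither of the others. TATA elements were found in 13.99% of all genes. The matches are shown with 10 bases on each side, plus strand, and the element in capitals, to set the AREG and EREG promoters side by side. They lie at chr4:74445061-74445088, chr4:74445097-74445122 and chr4:74365103-74365128 of GRCh38.p14.
AREG, CRE: ggccgggcctTGACGTCAtgggctgcgg
AREG, TATA: cggctgagccTATAAAgcggcaggtg
EREG, TATA: ggctccctagTATAAAgttcgcagca

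Of the other members, EGFR had matches to AP-1 and TATA, and ERBB2 had 1 match to AP-1, an element found in 9.37% of all genes. HBEGF, TGFA and ADAM17 held none of these letters in the windows searched. A match describes the sequence, and the binding of any factor was not measured in these libraries.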

How the data were processed

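RNA was measured in 4 libraries. The authors selected poly(A) RNA, prepared TruSeq libraries, sequenced them in pairs, mapped reads to hg19 (GRCh37) with STAR and counted unique reads with featureCounts. The deposited values are raw counts, without normalization, and the gene length in the same files was used for CPM per kb. Tool versions, the strand setting and whether a pair counted once are not given in the sources used here. The labels do not say whether the cultures were handled separately, so p-values measure the spread between these samples.

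From the counts, TMM-scaled CPM were computed and 15398 genes passing filterByExpr were fitted in edgeR 4.0.16 (quasi-likelihood with its legacy deviances, limma 3.58.1, R 4.3.3) on all 4 libraries, with Benjamini-Hochberg adjustment over all genes. The call rule (adjusted p under 0.01, log2-fold change beyond 0.6 in either direction) followed the study's methods. The labels give both isolates in both groups, so replicate numbers pair the libraries. Across genes, the isolate difference in the controls correlated at 0.46 with that after knockdown. Alternatives were DESeq2 1.42.0, alone and after RUVs (rewritten from its description, 1 factor, all genes as controls), other size factors and filters, the replicate block, AREG and AREGB summed, and each library left out. Exact intervals for ratios condition on the sum of the pair's counts. The fits were also run on simulated data, but the outcome is not reported here and no result rests on it.

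The members and lists were chosen with earlier results of these data known. Named genes were the members, AREGB, HMGB1, at most 5 called genes of each list (smallest p without the block), all tested genes near AREG, leading markers and the 5 genes nearest to AREG and to EREG. A gene that the rule names is not reported here.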

Additional observations from a re-analysis of the deposited data

Results flagged for a closer look

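In some genes the isolates, or the groups, went in opposite directions. None of these differences was tested, since 1 library for each isolate and group leaves no residual degrees of freedom, and 21.7% of all genes tested had knockdown log2 ratios of opposite sign in the isolates. EGFR had a knockdown log2 ratio of -0.0644 in I90-10 and 0.0257 in I90-79. For AFP these were -0.0495 and 1.15, at under 1 CPM in every library, and for PF4V1 1.25 and -0.23, at under 2 CPM. HBEGF had a log2 ratio of I90-79 over I90-10 of 1.0015 in the controls and -0.40 after knockdown, and ADAM17 of -0.063 and 0.0304.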

How the results depend on the processing

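Counts of calls depended on the fit. Up- and downregulated genes among all tested were 10 and 21 without a replicate block, 1028 and 1207 with it, 702 and 788 with DESeq2, 754 and 801 with RUVs and DESeq2, 1118 and 1275 without a filter, 6 upregulated with at least 10 counts in every library, 606 and 693 at an adjusted p below 0.05 with no fold threshold, and 30 and 68 with bias-adjusted deviances, chosen after seeing the data. Without 1 library they ranged from 0 to 305 and from 0 to 337. For the pathway lists (0 and 0) these were 14 and 14 with the block, 9 and 10 (DESeq2), 9 and 12 (RUVs), 16 and 14 (no filter), 5 and 9 (adjusted p below 0.05), 2 and 0 (bias-adjusted), and 0 to 7 and 0 to 8 without 1 library. Near AREG, 0 upregulated became 7 with the block, 1 with DESeq2 or RUVs, 7 without a filter and 0 to 4 without 1 library. Between isolates, 68 higher and 189 lower genes became 158 higher (DESeq2), 382 and 531 (no filter), 43 higher (at least 10 counts) and 416 and 629 (adjusted p below 0.05). Members called between isolates were 0 and 0, then 1 higher with DESeq2 size factors or bias-adjusted deviances, 3 higher without a filter, and 2 higher and 1 lower at an adjusted p below 0.05. HMGB1 missed the threshold without knockdown replicate 1 (log2-fold change -3.47, edgeR adjusted p = 0.0487) or 2 (-3.71, edgeR adjusted p = 0.0324), and ranged from -3.77 to -3.38 without 1 library. The causes were not tested. Of 77 recomputed member values 66 moved by less than the SD of that gene's knockdown log2 ratios in the 2 isolates. This SD was wide for some genes (3.34 for AREG), so the tally does not show that the values are stable. EGFR changed sign in 2 of the recomputed values, at 0.08 and 0.04 with 1 library left out. AREG could not be fitted with at least 10 counts in every library. Fits with the isolate as a term could not be run without 1 library. Depth limits AREG in the control of I90-10, at 1 count, and TGFA.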
